A study of Capra hircus with 9 samples.

Results

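The genes of lactose synthesis and glucose uptake in the goat mammary gland were examined, namely LALBA, B4GALT1, SLC2A1, UGP2, PGM1, SLC35A2, HK1 and HK2. They were taken by symbol, and all 8 were found among the 23499 genes of the expression table. The mammary gland tissue came from 9 Laoshan dairy goats, a breed kept for milk in China. All goats were healthy and of parity 3, with a mean age of 4 years. Late lactation (LL, 240 days postpartum), the dry period (DP, 300 days postpartum) and late gestation (LG, 140 days after mating) were each represented by 3 goats with 1 RNA sequencing library per goat. Different goats were sampled at each stage, and early and peak lactation were not analysed here. The p-values therefore measure the spread between goats.

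Lactose is the main sugar of milk and draws water into it. Glucose enters the mammary epithelial cell through transporters of the plasma membrane and is phosphorylated by hexokinases. It is then carried through glucose 1-phosphate and UDP-glucose to UDP-galactose, which is moved into the Golgi. There a galactosyltransferase joins galactose to free glucose when it is bound to alpha-lactalbumin, a milk protein made in the secretory epithelium.

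Expression values were read as FPKM, fragments per kilobase of transcript relative to the fragments of the library, because the table names no unit. The table holds no read counts, and although reads per library were published with the study, the number of reads behind each FPKM value was not worked out here, so no counting error is given. The sum of all genes was 940676 to 1157015 FPKM for LL, 601250 to 616268 for DP and 733277 to 768157 for LG, and median-ratio scaling factors were 0.498 to 0.606, 1.44 to 1.53 and 1.198 to 1.31, respectively. These sums include the row of RPL36AL. In DP replicates 2 and 3 and all LG libraries it lay 100000 FPKM further above its neighbour DNAAF2 than in DP replicate 1 and all LL libraries, apart from the fixed amounts described below. The sums were not corrected for this. Levels below are FPKM before scaling unless named as scaled. Fold changes were taken as differences of log2(scaled FPKM + 1), a scale that makes changes of genes at low levels look smaller than they are. A gene was called higher or lower at a limma adjusted p (Benjamini-Hochberg, over all 14701 genes tested) under 0.05 when its log2 fold change was also 1 or more in size. Without scaling, the median of all genes was shifted by 1.09 in DP versus LL, 0.93 in LG versus LL and -0.18 in LG versus DP (log2). Scaling can therefore turn a gene whose FPKM is above that of LL into one with a negative log2 fold change.

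The table holds rows that are not separate measurements, and 2 of the 8 genes are among them. In all 9 libraries SMU1, a neighbour of B4GALT1, equalled B4GALT1 plus 2.32 FPKM plus a fixed set of amounts, which was 1, 1.3 and 1.5 FPKM in LL libraries, 1, 1.5 and 1.5 in DP libraries and 1.5, 1.2 and 1 in LG libraries. In total 989 neighbouring pairs with 1323 genes differed by a constant plus a multiple of these amounts to within 0.02 FPKM. LOC102183480, which neighbours SLC2A1, equalled SLC2A1 plus these amounts in the 6 libraries of LL and DP. In LG, SLC2A1 lay above that relation by 30, 30 and 20 FPKM in replicates 1, 2 and 3. Departures of whole numbers were found in 5 pairs of the table. The origin of these amounts was not tested, and whether values were changed after they had been estimated is not known, which limits what the rows of SLC2A1 and B4GALT1 can show. The results for SLC2A1 in LG are given with the deposited values and with the values that the neighbouring row implies, an alternative chosen after seeing the data. For LALBA, UGP2, PGM1, SLC35A2, HK1 and HK2 no such neighbour was found, so their values could not be checked in this way.

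The 8 genes also differ in where their rows stand. The first 22112 rows of the table run downward by mean LG FPKM, with 1 exception, and the closing 1387 rows (5.902%) run instead by name, in alphabetical order at 99.64% of steps. LALBA, B4GALT1, SLC2A1, UGP2, PGM1 and SLC35A2 are among the closing rows, and HK1 and HK2 are not. All 1387 closing rows passed the filter on low values, and they were called more often than the 13314 other genes tested: 51.84% lower and 15.79% higher in DP versus LL (4.304% and 13.59% of the others), 40.16% lower and 12.83% higher in LG versus LL (3.117% and 10.47%) and 24.51% lower and 39.22% higher in LG versus DP (5.04% and 2.952%). How the closing rows were chosen is not given in the sources used here and was not tested. This split was looked at after seeing the data.

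**Figure D1:**
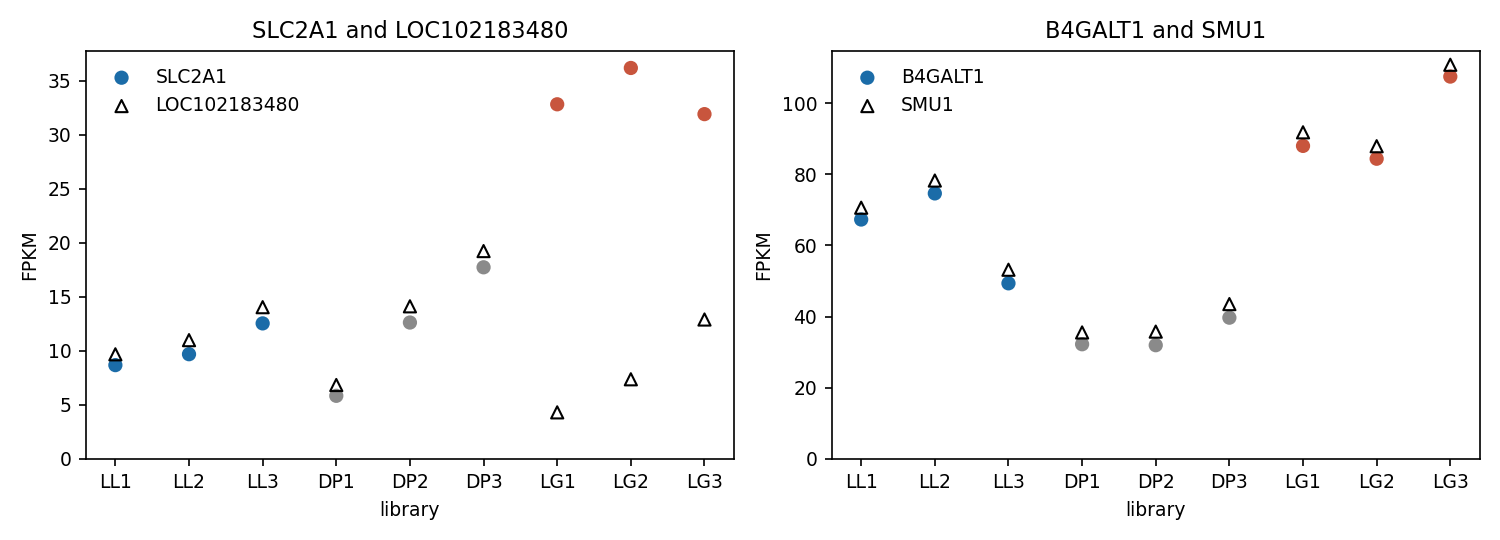
FPKM of SLC2A1 with its neighbour LOC102183480 (left) and of B4GALT1 with its neighbour SMU1 (right) in each of the 9 libraries, on linear axes; filled circles are coloured by stage (LL blue, DP grey, LG red) and open triangles are the neighbouring row. The 2 rows run side by side except for SLC2A1 in LG, where SLC2A1 is at 31.9 to 36.2 FPKM and its neighbour at 4.30 to 12.9 FPKM.

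In DP versus LL, 5 of the 8 genes were called lower (LALBA, B4GALT1, SLC35A2, UGP2 and SLC2A1), where 8.79% of all genes tested were called lower, and HK2 was called higher, where 13.8% of all genes were. In LG versus DP, 6 of 8 were called higher (LALBA, PGM1, SLC35A2, SLC2A1, UGP2 and B4GALT1), beside 6.37% of all genes. In LG versus LL, PGM1 was called higher (1 of 8, beside 10.7% of all genes) and LALBA lower (1 of 8, beside 6.61%). In LG versus DP limma called 0 of 8 lower, beside 6.88% of all genes; HK1 and HK2 were lower at an unadjusted p under 0.05, which makes 2 of 8. The median log2 fold change of the 8 genes was -1.67 in DP versus LL, -0.13 in LG versus LL and 1.69 in LG versus DP, and that of all genes was 0.004061, 0.02 and 0.008332. The comparisons share libraries and are not independent of each other. The 6 genes called higher in LG versus DP are the 6 of the closing rows, where 39.22% of genes were so called, and the 5 called lower in DP versus LL are among them, beside 51.84%.

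The counts depended on scaling. Without scaling, 3 of the 8 genes were called in DP versus LL, HK1 and HK2 higher (2 of 8, beside 54.28% of all genes) and LALBA lower (1 of 8, beside 2.51%). Of the 8, 4 were then called in LG versus LL, SLC2A1, PGM1 and HK1 higher (3 of 8, beside 45.56%) and LALBA lower (1 of 8, beside 2.347%). The count in LG versus DP without scaling was 6 of 8 higher, beside 4.864% of all genes. In LG versus LL the unscaled values of SLC2A1 (1.63), HK1 (1.21), UGP2 (0.69), SLC35A2 (0.63) and B4GALT1 (0.55) were above 0. The unscaled median of the 8 genes in LG versus LL was therefore above 0, as was that of all genes (0.93).

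**Figure D2:**
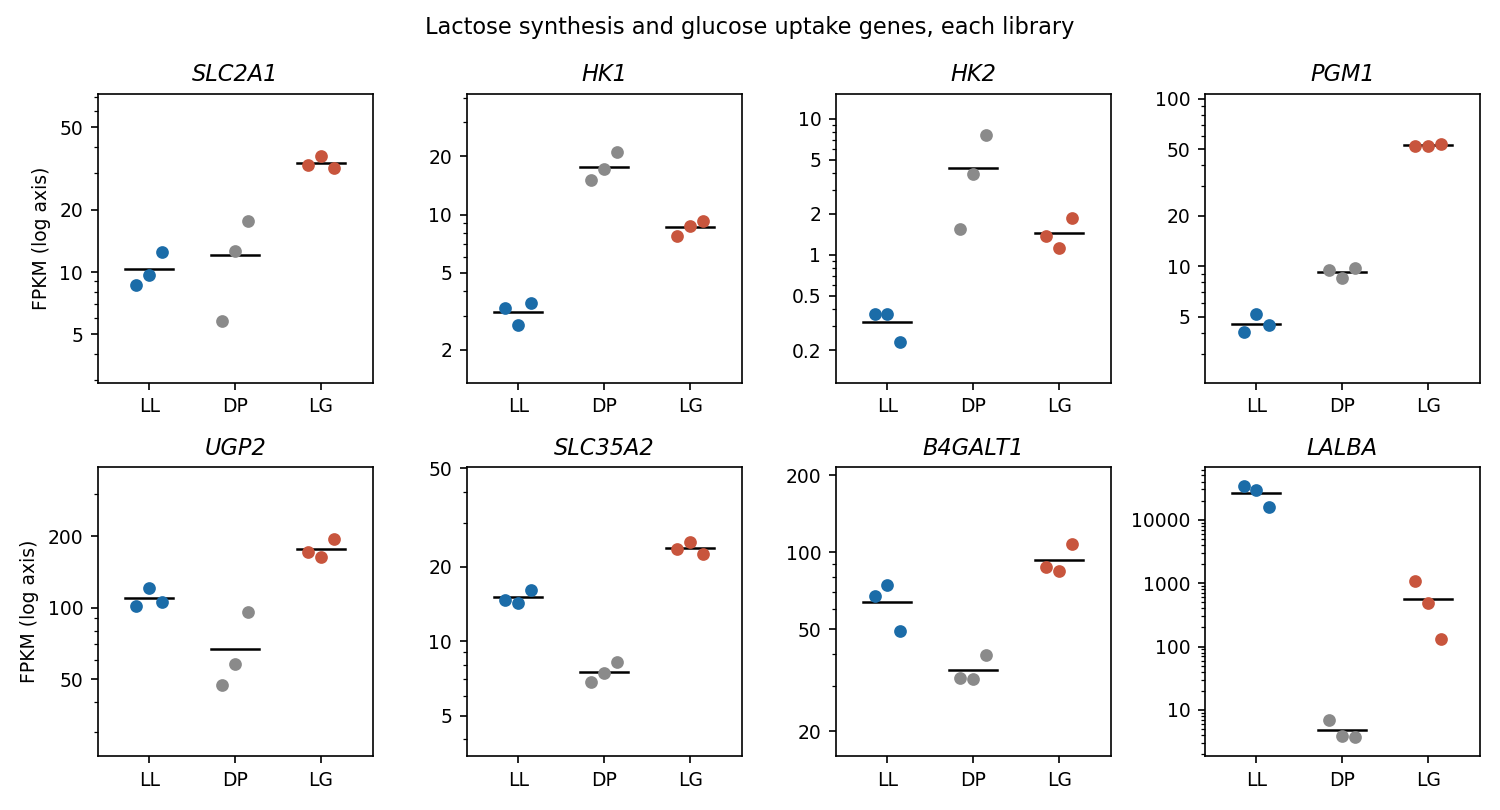
FPKM of each of the 8 genes in each library on a logarithmic axis, by stage (LL blue, DP grey, LG red); points are libraries, 3 per stage, and horizontal lines are means. In LALBA the 3 stages lie far apart, from 3.74 FPKM in a DP library to 33600.2 in an LL library, and in PGM1 the LG libraries lie at 52.2 to 53.3 FPKM above all others.

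SLC2A1 (gene ID 102174800, chromosome 3, 17438803 to 17472481, minus strand) encodes GLUT1, the facilitative glucose transporter of the basolateral membrane of mammary epithelium. The table names no genome build, and start and end of all 8 genes equal those of the RefSeq gene table of ARS1.2. SLC2A1 was at 8.67, 9.68 and 12.5 FPKM in LL libraries, 5.83, 12.6 and 17.7 in DP libraries and 32.8, 36.2 and 31.9 in LG libraries. The LL and DP libraries overlapped before scaling, with DP replicate 1 the lowest of all, and the LG libraries lay above both stages. After scaling, the level was 18.5 ± 1.87 in LL libraries, 8.29 ± 4.27 in DP libraries and 27.0 ± 2.55 in LG libraries (SD, n = 3), and no pair of stages overlapped. The log2 fold change in DP versus LL was -1.19 (SE 0.31, limma adjusted p = 0.00923), but it was 0.11 without scaling and -0.77, under the threshold of size, without DP replicate 1. In LG versus DP it was 1.71 (SE 0.31, limma adjusted p = 0.00260), and in LG versus LL 0.52 (SE 0.31, limma adjusted p = 0.189), or 1.63 and called higher without scaling.

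The direction of SLC2A1 depended on its LG values. The neighbouring row implies 2.80, 6.16 and 11.9 FPKM in LG (6.95 ± 4.60, SD, n = 3), a range that overlaps both LL and DP before scaling. With these values the log2 fold change was -1.73 in LG versus LL, which was called lower, and -0.55 in LG versus DP, which was not called. The number of the 8 genes called became 3 in LG versus LL, 1 higher and 2 lower, and 5 in LG versus DP, all higher, beside 10.7% higher and 6.61% lower and 6.37% higher, respectively, of all genes with the deposited values.

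HK1 and HK2 encode hexokinases, which trap glucose in the cell as glucose 6-phosphate; HK1 is found in most tissues and HK2 is the insulin-responsive form of muscle and fat. HK1 (gene ID 102190759, chromosome 28, 19903733 to 19975931, minus strand) was at 3.27, 2.69 and 3.47 FPKM in LL libraries, 15.0, 17.1 and 21.0 in DP libraries and 7.71, 8.75 and 9.24 in LG libraries. No pair of stages overlapped, DP being highest and LL lowest; after scaling LL (4.86 to 6.57) and LG (6.44 to 7.09) overlapped. The log2 fold change of HK1 was 0.95 in DP versus LL (SE 0.16, limma adjusted p = 0.000823), just under the threshold of size, 0.23 in LG versus LL (SE 0.16, limma adjusted p = 0.247) and -0.72 in LG versus DP (SE 0.16, limma adjusted p = 0.00665). The DP versus LL value passed the threshold without LL replicate 1 (1.0406), without DP replicate 1 (1.08), without scaling (2.17), with quantile normalization (1.0334) and with a pseudocount of 0.1 (1.06), and without scaling HK1 was also called higher in LG versus LL (1.21).

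HK2 (gene ID 102168356, chromosome 11, 9602876 to 9668749, minus strand) was the lowest of the 8 genes in LL, at 0.37, 0.37 and 0.23 FPKM, and reached 1.56, 3.91 and 7.57 in DP and 1.37, 1.12 and 1.85 in LG. The LL libraries lay below all others, and DP and LG overlapped at DP replicate 1. HK2 was higher in DP than in LL by a log2 fold change of 1.18 (SE 0.33, limma adjusted p = 0.0134). This call was lost without DP replicate 3, the library with the highest value (0.77), and with quantile normalization (0.63) or scaling to epithelial markers (0.46), and without scaling the value was 1.85. With the filter raised to 2 FPKM, HK2 was not tested. HK2 in LG versus LL was 0.43 (SE 0.33, limma adjusted p = 0.307), and it turned to -0.06 with quantile normalization and to -0.26 with epithelial scaling. In both of these alternatives 1 was added before scaling rather than after it, an order that matters most for genes at low levels such as HK2. Its part in these values and in the lost call in DP versus LL was not tested. In LG versus DP HK2 was -0.75 (SE 0.33, limma adjusted p = 0.108), and without DP replicate 1 it was -1.15 and called lower. Over single libraries left out, this value ranged from -1.15 to -0.35.

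PGM1 encodes phosphoglucomutase 1, which converts glucose 6-phosphate into glucose 1-phosphate. PGM1 (gene ID 102183563, chromosome 3, 38942586 to 39008777, plus strand) was at 4.02, 5.16 and 4.46 FPKM in LL libraries, 9.45, 8.55 and 9.76 in DP libraries and 52.2, 52.4 and 53.3 in LG libraries. The stages did not overlap, with LG far above the other stages. PGM1 was the only gene of the 8 called higher in LG versus LL, by 2.23 (SE 0.13, limma adjusted p = 3.03e-06), and in LG versus DP it was higher by 2.57 (SE 0.13, limma adjusted p = 3.66e-06). In DP versus LL it was -0.34 (SE 0.13, limma adjusted p = 0.0426), not called, and 0.89 without scaling. The LG libraries of PGM1 were close to each other. Their coefficient of variation was 1.14%, against a median of 16.7% over the 11843 tested genes with a mean of at least 2 FPKM in LG, of which 55 (0.464%) had a smaller one. This measure was picked with the values in view, and for PGM1 it was 12.6% in LL and 6.79% in DP. Whether the LG values of PGM1 were changed after estimation is likewise not known.

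UGP2 encodes UDP-glucose pyrophosphorylase, which makes UDP-glucose from glucose 1-phosphate. UGP2 (gene ID 102177249, chromosome 11, 62012640 to 62070249, plus strand) was at 101.7, 121.5 and 105.3 FPKM in LL libraries, 47.4, 57.7 and 96.2 in DP libraries and 171.6, 163.7 and 194.9 in LG libraries. Every LG library was above every LL library and every LL library above every DP library, DP replicate 3 coming closest to LL. UGP2 was lower in DP than in LL by a log2 fold change of -2.16 (SE 0.25, limma adjusted p = 0.000100), which was -0.76 and not called without scaling and -1.41 with quantile normalization. It was higher in LG than in DP by 1.67 (SE 0.25, limma adjusted p = 0.00103), and in LG versus LL it was -0.49 (SE 0.25, limma adjusted p = 0.135), or 0.69 without scaling.

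SLC35A2 encodes the transporter that carries UDP-galactose into the Golgi. SLC35A2 (gene ID 102173275, on a scaffold without a chromosome, 87758 to 95580, minus strand) was at 14.7, 14.3 and 16.1 FPKM in LL libraries, 6.85, 7.45 and 8.19 in DP libraries and 23.5, 25.2 and 22.4 in LG libraries. Libraries of a stage lay close together, with coefficients of variation of 6.37% in LL libraries, 8.95% in DP libraries and 5.95% in LG libraries, and the stages did not overlap. SLC35A2 was lower in DP than in LL by -2.21 (SE 0.13, limma adjusted p = 3.24e-06), or by -0.92 and not called without scaling. It was higher in LG than in DP by 1.71 (SE 0.13, limma adjusted p = 5.20e-05), and in LG versus LL it was -0.50 (SE 0.13, limma adjusted p = 0.0119), not called, or 0.63 without scaling.

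B4GALT1 encodes beta-1,4-galactosyltransferase 1, the catalytic part of lactose synthase, and LALBA encodes alpha-lactalbumin, its regulatory part. B4GALT1 (gene ID 100860927, chromosome 8, 74661494 to 74711790, minus strand), whose row cannot be told apart from that of SMU1, was at 67.3, 74.6 and 49.4 FPKM in LL libraries, 32.2, 32.0 and 39.7 in DP libraries and 88.0, 84.4 and 107.5 in LG libraries. The stages did not overlap before scaling, and after scaling LG (68.4 to 81.8) reached into LL (81.5 to 135.2) at LL replicate 3. B4GALT1 was lower in DP than in LL by a log2 fold change of -2.24 (SE 0.22, limma adjusted p = 3.49e-05), or by -0.85 and not called without scaling, and higher in LG than in DP by 1.62 (SE 0.22, limma adjusted p = 0.000545). In LG versus LL it was -0.61 (SE 0.22, limma adjusted p = 0.0394), not called, or 0.55 without scaling.

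LALBA (gene ID 100860779, chromosome 5, 30812573 to 30814589, plus strand) was at 33600.2, 29745.4 and 15626.1 FPKM in LL libraries, 6.92, 3.84 and 3.74 in DP libraries and 1078.8, 489.7 and 130.3 in LG libraries. The stages did not overlap, and the LG libraries differed most among themselves, with a coefficient of variation of 84.6%. LALBA made up 2.41% ± 0.661 of all FPKM in LL, 0.0765% ± 0.0658 in LG and 0.000797% ± 0.000303 in DP (SD, n = 3). The sums behind these shares include the row of RPL36AL described above, which raises them in LG and in DP replicates 2 and 3. The log2 fold change was -13.41 in DP versus LL (SE 0.68, limma adjusted p = 1.32e-06), -7.10 in LG versus LL (SE 0.68, limma adjusted p = 4.56e-05) and 6.30 in LG versus DP (SE 0.68, limma adjusted p = 0.000203). These are the largest changes among the 8 genes, and leaving out any library moved them to -13.85 to -13.17, -7.83 to -6.24 and 5.57 to 7.15, respectively. Quantile normalization gave -3.94 in LG versus LL, which was still called lower. In bulk tissue, fewer cells of a type and less RNA per cell cannot be told apart.

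**Figure D3:**
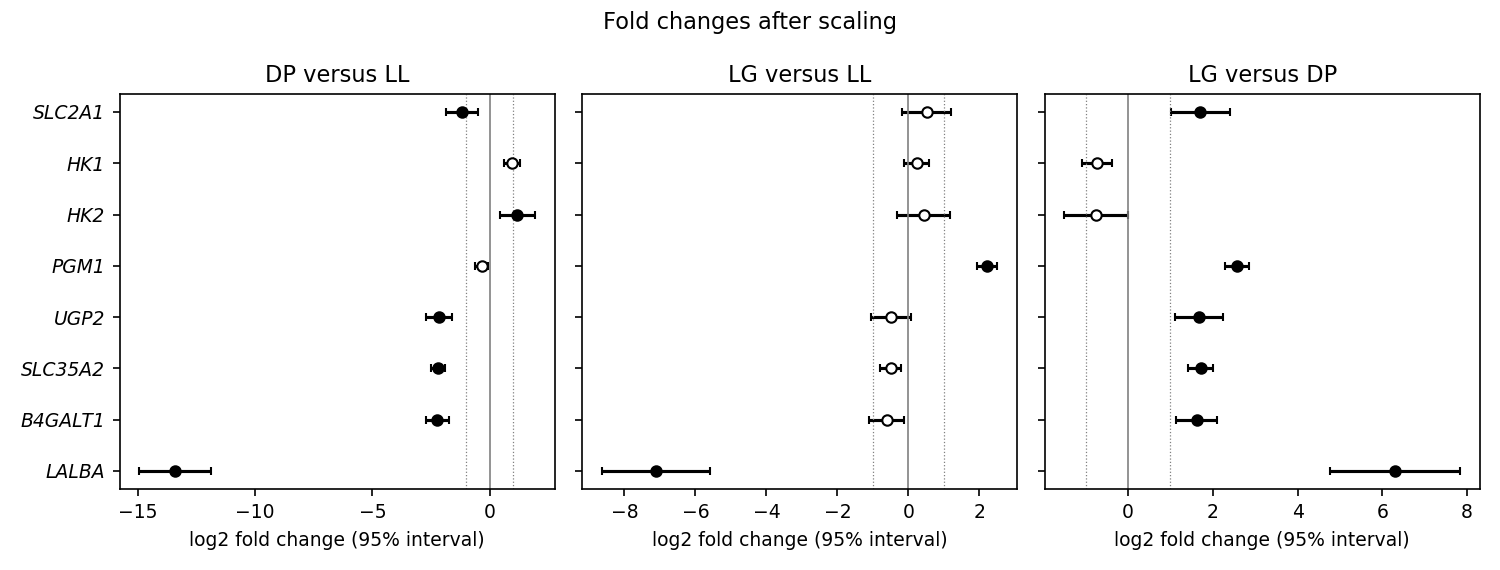
Log2 fold change of the scaled values of each gene (rows) in DP versus LL, LG versus LL and LG versus DP (panels, with axes of different range); bars are 95% confidence intervals from limma, filled circles are called genes, and dotted lines mark a change of 1 in size. The SLC2A1 row uses the deposited values, and without scaling SLC2A1 and PGM1 change sign in DP versus LL and UGP2, SLC35A2 and B4GALT1 in LG versus LL, as does HK2 in LG versus LL with quantile normalization or epithelial scaling. In both of the latter, 1 was added before scaling rather than after it.

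FPKM are per length, so levels can be ordered between genes. In LL the order was LALBA (26323.9 ± 9462.9), UGP2 (109.5 ± 10.6), B4GALT1 (63.8 ± 13.0), SLC35A2 (15.0 ± 0.956), SLC2A1 (10.3 ± 2.002), PGM1 (4.55 ± 0.575), HK1 (3.14 ± 0.405) and HK2 (0.323 ± 0.0808), as mean FPKM ± SD with n = 3, and no neighbours in this order overlapped. In DP it was UGP2 (67.1 ± 25.7), B4GALT1 (34.6 ± 4.39), HK1 (17.7 ± 3.04), SLC2A1 (12.1 ± 5.97), PGM1 (9.25 ± 0.629), SLC35A2 (7.50 ± 0.671), LALBA (4.83 ± 1.81) and HK2 (4.35 ± 3.03). The libraries of HK1 and SLC2A1, of SLC2A1 and PGM1, of SLC35A2 and LALBA and of LALBA and HK2 overlapped in DP. In LG it was LALBA (566.2 ± 478.8), UGP2 (176.8 ± 16.2), B4GALT1 (93.3 ± 12.4), PGM1 (52.6 ± 0.5997), SLC2A1 (33.6 ± 2.25), SLC35A2 (23.7 ± 1.41), HK1 (8.57 ± 0.781) and HK2 (1.45 ± 0.371). There LALBA and UGP2 overlapped, since LG replicate 3 had 130.3 FPKM of LALBA, and with the values implied by its neighbour SLC2A1 would stand between HK1 and HK2.

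Ratios within a library do not depend on the scaling. LALBA stood to B4GALT1 as 499.3, 398.6 and 316.6 in LL libraries, 0.215, 0.120 and 0.0942 in DP libraries and 12.3, 5.80 and 1.21 in LG libraries. LALBA thus exceeded B4GALT1 in every LL and LG library and was below it in every DP library. UGP2 stood to PGM1 as 25.3, 23.6 and 23.6 in LL libraries, 5.02, 6.75 and 9.86 in DP libraries and 3.29, 3.12 and 3.66 in LG libraries, and the stages did not overlap. HK2 to HK1 was 0.113, 0.138 and 0.0663 in LL libraries, 0.104, 0.229 and 0.360 in DP libraries and 0.178, 0.128 and 0.200 in LG libraries, and all stages overlapped. In two-sided exact permutation tests of the log2 ratios (9 tests), p was 0.1 (adjusted p = 0.15) for each pair of stages for LALBA to B4GALT1 and UGP2 to PGM1, which is the smallest p that 3 against 3 libraries allow. For HK2 to HK1 the exact permutation p was 0.3 in DP versus LL, 0.2 in LG versus LL and 0.6 in LG versus DP (adjusted p = 0.338, 0.257 and 0.6).

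Of 59 other genes of these pathways, 58 were in the table and 52 passed the filter on low values. In DP versus LL 17 of the 52 (32.7%) were called lower and 4 (7.69%) higher, in LG versus LL 9 (17.3%) lower and 4 (7.69%) higher, and in LG versus DP 5 (9.62%) lower and 14 (26.9%) higher; the shares of all genes are those given above. Without scaling the split in DP versus LL turned to 25 higher and 11 lower of 52, beside 54.28% and 2.51% of all genes. The split in LG versus LL turned to 25 higher and 2 lower, beside 45.56% and 2.347%, and in LG versus DP it was 14 higher and 8 lower, beside 4.864% and 10.73%. Of the 52, 16 are among the closing rows of the table; with scaling, 14 of these 16 were called lower in DP versus LL and 13 higher in LG versus DP, whereas 3 and 1 of the other 36 were.

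Other genes listed from the SLC2A, SLC5A and SLC50A transporter families gave 9 of the 17 lower calls in DP versus LL. What each of them carries was not tested. Of 12 tested, 9 were called lower in DP versus LL (median log2 fold change -2.96) and 9 higher and 1 lower in LG versus DP (median 1.70), whereas in LG versus LL 3 were called lower and 1 higher (median -0.76). The genes called lower in DP versus LL are also those called higher in LG versus DP. All of them but SLC5A9 are among the closing rows, where 51.84% and 39.22% of genes were so called, respectively. SLC2A4, which encodes the insulin-responsive transporter GLUT4, was at 545.6 ± 41.4 FPKM in LL libraries, 44.8 ± 5.61 in DP libraries and 941.3 ± 54.8 in LG libraries (SD, n = 3), a level above that of SLC2A1 in every library. SLC2A8, which encodes GLUT8, was at 52.2 ± 0.716, 4.74 ± 0.393 and 74.1 ± 5.06 FPKM in LL, DP and LG, and SLC2A10, which encodes GLUT10, at 43.6 ± 4.08, 11.9 ± 4.47 and 224.5 ± 15.8. All 3 fell in DP versus LL (log2 fold changes of -4.98, -4.50 and -3.20) and rose in LG versus DP (4.59, 3.83 and 4.38). In LG versus LL, SLC2A10 rose by 1.18, while SLC2A4 (-0.39) and SLC2A8 (-0.67) were not called and were above 0 without scaling (0.79 and 0.49).

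SLC5A1, which encodes the sodium-coupled glucose transporter SGLT1, was at 18.7, 15.7 and 8.73 FPKM in LL libraries, 2.54, 0.76 and 0.37 in DP libraries and 5.56, 4.29 and 3.30 in LG libraries, so that before scaling LG lay between the other stages without overlap. The log2 fold change was -3.91 in DP versus LL (limma adjusted p = 2.77e-05), -2.54 in LG versus LL (limma adjusted p = 0.000473) and 1.37 in LG versus DP (limma adjusted p = 0.0167). The last call was lost without DP replicate 2 (1.27), DP replicate 3 (1.13) or LG replicate 1 (1.19).

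Among 9 tested enzymes of hexose phosphates, the calls were 2 lower and 1 higher in DP versus LL (median -0.05), 1 lower and 1 higher in LG versus LL (median -0.002754) and 1 lower and 2 higher in LG versus DP (median 0.05). PGM2, a further phosphoglucomutase, was at 12.3 ± 0.349, 6.01 ± 2.59 and 36.3 ± 1.24 FPKM in LL, DP and LG (SD, n = 3); it fell by 2.25 in DP versus LL, rose by 2.62 in LG versus DP and was at 0.37 in LG versus LL. Without scaling PGM2 was not called in DP versus LL (-0.98) and was called higher in LG versus LL (1.49). HK3, a hexokinase of white blood cells, was at 2.45 ± 0.557, 9.79 ± 1.18 and 1.71 ± 0.387 FPKM, and was called lower in LG versus LL (-1.19) and versus DP (-1.70). HK3 was 0.50 in DP versus LL and not called; without scaling it was 1.65 and called higher there, and the call in LG versus LL was lost (-0.35). PGM2L1, which makes glucose 1,6-bisphosphate, was at 0.080 ± 0.0436, 3.83 ± 0.810 and 0.997 ± 0.263 FPKM and rose in DP versus LL (1.65), a call lost with epithelial scaling (0.76). It was 0.65 in LG versus LL, and 1.90 and called with a pseudocount of 0.1. PGM2L1 in LG versus DP was -0.995, just under the threshold of size, and was called lower without scaling (-1.27), with quantile normalization (-1.0041), epithelial scaling (-1.0107) or a pseudocount of 0.1 (-1.60), with only the 2 stages compared (-1.10), and without any one of LL replicates 1, 2 or 3, DP replicate 2 or LG replicates 1 or 2 (-1.0153 to -1.0874).

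Of 10 enzymes of UDP-sugars, galactose and glycogen, 3 were called lower in DP versus LL (median -0.31), 1 lower and 2 higher in LG versus LL (median 0.28) and 2 lower and 2 higher in LG versus DP (median 0.56). GALM, galactose mutarotase, was at 8.25 ± 0.932, 9.27 ± 2.22 and 49.99 ± 13.0 FPKM in LL, DP and LG, with log2 fold changes of -1.14 in DP versus LL, which turned to 0.14 without scaling, 1.33 in LG versus LL and 2.48 in LG versus DP. GALK1, galactokinase, was at 1.30 ± 0.316, 7.85 ± 0.511 and 10.9 ± 2.40 FPKM and was called higher in LG versus LL (1.54); in DP versus LL it was 0.93, and it was called higher there without scaling (1.95), with quantile normalization (1.03), with a pseudocount of 0.1 (1.17) and without LL replicate 3 (1.02). GBE1, the glycogen branching enzyme, was at 13.4 ± 2.02, 23.8 ± 4.56 and 9.14 ± 1.51 FPKM and was called lower in LG versus LL (-1.60), though not without scaling (-0.50). Its call in LG versus DP (-1.04) was lost without DP replicate 2 (-0.88) or LG replicate 2 (-0.96).

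Beta-1,4-galactosyltransferases other than B4GALT1 build glycoproteins and glycolipids, and 6 were tested. In DP versus LL 2 were called higher and 4 were not called (median 0.64), in LG versus LL 6 of 6 were not called by limma (median 0.44, 4 at an unadjusted p under 0.05), and in LG versus DP 1 was called lower (median -0.25). B4GALT5, a glycolipid-forming enzyme, was at 0.240 ± 0.0889, 7.96 ± 2.32 and 2.23 ± 0.154 FPKM in LL, DP and LG, and B4GALT4 at 1.197 ± 0.279, 8.81 ± 2.25 and 4.12 ± 0.415. They rose by 2.14 and 1.13 in DP versus LL, and the call of B4GALT4 was lost without DP replicate 3 (0.94) and with epithelial scaling (0.75). The call of B4GALT5 in LG versus DP (-1.18) was lost without DP replicate 3 (-0.97), and in LG versus LL B4GALT5 was 0.97, and called higher without LL replicate 3 (1.06), without scaling (1.38) and with a pseudocount of 0.1 (1.86). B4GALT4 was 0.45 in LG versus LL, and 1.22 and called higher without scaling.

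Of 9 other nucleotide sugar transporters, 2 were called lower and 1 higher in DP versus LL (median -0.12) and 1 lower in LG versus LL (median 0.06), and in LG versus DP 9 of 9 were not called by limma (median 0.26, 4 at an unadjusted p under 0.05). SLC35D1, which carries UDP-glucuronic acid and UDP-N-acetylgalactosamine, was at 0.1 ± 0.0625, 4.43 ± 0.585 and 1.56 ± 0.1002 FPKM in LL, DP and LG and rose in DP versus LL (1.76), a call lost with epithelial scaling (0.91). SLC35D1 was 0.92 in LG versus LL, and called higher without LL replicate 1 (1.05), without scaling (1.22) and with a pseudocount of 0.1 (2.33). SLC35D1 was -0.84 in LG versus DP, and called lower without scaling (-1.08) and with a pseudocount of 0.1 (-1.20). SLC35D2 was at 4.99 ± 0.662, 4.23 ± 0.973 and 3.82 ± 1.68 FPKM and SLC35B1 at 13.5 ± 1.87, 14.1 ± 2.79 and 17.0 ± 3.602, levels that overlapped between stages before scaling. SLC35D2 was called lower in DP (-1.38) and LG (-1.35) against LL, and SLC35B1 in DP versus LL (-1.27); without scaling these were -0.21, -0.36 and 0.06 and not called.

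Of the 3 genes of Golgi manganese and calcium supply, ATP2C2, which encodes a calcium and manganese pump of secretory cells, was called in each comparison and TMEM165 and ATP2C1 were not (medians of -0.06 in DP versus LL, -0.07 in LG versus LL and 0.17 in LG versus DP). ATP2C2 is among the closing rows of the table, as are PGM2, GALM and GBE1, and TMEM165 and ATP2C1 are not. Of all closing rows, 51.84% were called lower in DP versus LL, 40.16% lower in LG versus LL and 39.22% higher in LG versus DP. ATP2C2 was at 75.1, 99.4 and 82.1 FPKM in LL libraries, 0.94, 1.03 and 0.51 in DP libraries and 8.68, 7.35 and 12.5 in LG libraries. The stages did not overlap, in the order of LALBA. The log2 fold change was -6.64 in DP versus LL (limma adjusted p = 2.57e-08), -4.20 in LG versus LL (limma adjusted p = 1.18e-06) and 2.44 in LG versus DP (limma adjusted p = 4.04e-05). Of 3 tested regulators of glucose uptake, HIF1A, an oxygen-sensing transcription factor, and TXNIP, an inhibitor of glucose uptake, were called lower in LG versus LL (median of the list -1.01). In DP versus LL (median -0.51) and LG versus DP (median -0.50) limma called 0 of the 3, and 0 had an unadjusted p under 0.05. HIF1A was at 29.6 ± 10.2, 53.5 ± 25.1 and 27.2 ± 18.1 FPKM in LL, DP and LG and TXNIP at 445.3 ± 199.5, 791.7 ± 255.4 and 460.5 ± 63.9, with overlapping stages. Their log2 fold changes of -1.39 and -1.01 lost the call when any of several single libraries was left out: HIF1A without LL replicate 2 (-1.38), LL replicate 3 (-1.24), LG replicate 1 (-1.05) or LG replicate 2 (-1.28), and TXNIP without LL replicate 2 (-0.77), LL replicate 3 (-0.90), LG replicate 1 (-0.97), LG replicate 2 (-0.98) or LG replicate 3 (-1.08). HIF1A also lost it without scaling (-0.25) and with quantile normalization (-1.12), and TXNIP without scaling (0.17), with quantile normalization (-0.73), epithelial scaling (-0.97), no filter (-1.01) or only the 2 stages compared (-0.9934). HIF1A was -0.81 in LG versus DP, and -1.26 and called without LG replicate 3, and TXNIP was -0.50, and -1.28 and called with quantile normalization. Over single libraries left out, HIF1A ranged from -1.26 to -0.44 there and TXNIP from -0.76 to -0.31.

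Markers of cell types were summed as scaled FPKM, and the gene named as most abundant in a list is the one with the highest mean FPKM over all 9 libraries. The 7 luminal epithelial markers summed to 1079, 1151 and 882.8 in LL libraries, 345.7, 650.0 and 446.0 in DP libraries and 835.1, 875.6 and 1000 in LG libraries. The DP libraries lay below all others, LL and LG overlapped, and 1 of the 7 was called, ELF5, a transcription factor of secretory epithelium and the most abundant of the list (325.1 ± 54.5, 46.9 ± 14.6 and 565.9 ± 78.4 FPKM in LL, DP and LG), though in DP it was below KRT19 (248.8), KRT7 (154.2), KRT8 (143.3) and EPCAM (47.22). ELF5 was called lower in DP versus LL and higher in LG versus DP. The other 6 markers summed to 406.1, 475.5 and 443.1 in LL libraries, 319.9, 605.8 and 419.9 in DP libraries and 384.3, 467.1 and 502.4 in LG libraries, so that all stages overlapped without ELF5. None of the 6 was called by limma in DP versus LL: KRT7 (0.86), KRT18 (0.60) and KRT8 (0.28) were above 0 there and KRT19 (-0.40), CDH1 (-0.48) and EPCAM (-0.74) below, and 4 of them (KRT7, KRT18, EPCAM and CDH1) had an unadjusted p under 0.05. The part of the epithelial cells in the values of the 8 genes was not tested beyond the following alternative. When each library was instead centred on KRT7, KRT8, KRT18, KRT19, EPCAM and CDH1, 5 of the 8 genes were called in DP versus LL, all lower, beside 15.84% of all genes lower (8.79% with the median-ratio factors), and 6 in LG versus DP, all higher, beside 7.986% of all genes.

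Most of the fibroblast and leukocyte markers tested were called higher in DP versus LL. The 5 fibroblast markers summed to 212.0 ± 50.9 in LL libraries, 967.2 ± 689.1 in DP libraries and 570.3 ± 161.9 in LG libraries (SD, n = 3), with 4 of 5 called higher in DP versus LL, 2 higher in LG versus LL and 2 lower in LG versus DP; the most abundant was COL3A1, which in LL (37.91 FPKM) was below DCN (43.62). ELF5, COL1A1, COL3A1, DCN, PDGFRA, PTPRC, CD68, CSF1R, PECAM1 and CLDN5 are among the closing rows of the table. The 6 leukocyte markers, of which 5 were tested, summed to 32.2 ± 3.76, 80.3 ± 26.9 and 29.4 ± 5.01, with 3 called higher in DP versus LL, 1 lower in LG versus LL and 4 lower in LG versus DP, and CSF1R most abundant. The part of these cell types in the DP values of HK1 and HK2 was not tested. Myoepithelial markers (6, KRT5 most abundant) summed to 226.3 ± 32.7, 323.5 ± 165.1 and 269.0 ± 40.4 and endothelial markers (5, PECAM1 most abundant) to 113.1 ± 16.2, 147.6 ± 38.4 and 67.0 ± 13.3, with 1 myoepithelial gene called higher in LG versus LL and versus DP and 2 endothelial genes lower in LG versus DP. The rows of KRT5, KRT14 and PECAM1 are tied to a neighbour by the fixed amounts. Adipocyte markers summed to 1.14 to 3.72 in all libraries except DP replicate 1, where they reached 20.4 with ADIPOQ most abundant, and 2 were tested and not called. Red blood cell markers summed to at most 0.804, with HBM and ALAS2 listed at 0 in every library, and skeletal muscle markers to at most 0.132; AHSP and ACTA1 were the most abundant and no gene of these lists passed the filter. FABP4, MYH1 and MYH2 were not analysed here.

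The genes most like each of the 8 in their log2 scaled values over the 9 libraries were found by Pearson's r, given as a description, since all libraries share the differences between stages. LALBA was most like GLYCAM1 (r = 0.994), SLC50A1 (0.991) and SND1 (0.991), of which GLYCAM1 encodes a milk mucin and had means of 3216.2, 0.810 and 156.4 FPKM in LL, DP and LG. SLC35A2 was most like SLC2A8 (0.992), PAEP (0.991), which encodes the whey protein beta-lactoglobulin, and SLC2A12 (0.990). UGP2 was most like HAGH (0.994), NELFE (0.990) and HDLBP (0.987), B4GALT1 like SSR2 (0.993) and SRP72 (0.992), and PGM1 like TMCO4 (0.992), FGF13 (0.989) and MLEC (0.986). Before scaling, mean FPKM was higher in DP than in LL for SSR2 (63.4 and 55.5), SRP72 (15.9 and 10.4), HAGH (12.5 and 11.1) and NELFE (12.15 and 6.07). B4GALT1 and UGP2 themselves were lower in DP, as was HDLBP (42.5 and 47.6). The r values hold for scaled values and do not measure the size of a change. SLC2A1, with its deposited LG values, was most like ELP5 (0.968), PSMD9 (0.962) and HSCB (0.954). The hexokinases had other partners: HK1 was most like TAGLN2 (0.986), SEPT8 (0.981) and RAB34 (0.979), and HK2 like SPTAN1 (0.963), TLCD2 (0.959) and MSN (0.958). These 6 genes had their highest mean FPKM in DP, such as 183.6 for TAGLN2 against 23.9 in LL and 59.1 in LG.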

How the data were processed

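The authors deposited 1 table with a value per gene and library. Quality control, trimming and alignment used FastQC, Trimmomatic, HISAT2 and SAMtools per the submitters' processing notes, which also name HTSeq, whereas the study's methods name StringTie, and its results give FPKM for transcripts. The deposited values were taken to be FPKM from the authors, 1 per gene. Of the gene identifiers, 23465 matched the RefSeq table of ARS1.2. Values were divided by median-ratio factors from 15905 genes, 1 was added and log2 was taken. A single limma model (version 3.58.1, R 4.3.3; lmFit, contrasts.fit, trended eBayes) without covariates held the 9 libraries and every gene that reached 0.5 FPKM in 3 or more of them. Ratios were tested by exact permutation in scipy 1.17.1. The fit and the search for tied rows were tested on simulated data. The 8 genes and the lists were chosen with earlier results of these data known. The other genes named are those of each pathway list that were called in any comparison, up to the 4 with the largest change, the most abundant marker of each list, and the 3 genes most like each of the 8. Some genes that meet these rules are not reported here. Alternatives covered scaling, pseudocount, filter, libraries, replicate block, variance model and call rule. For quantile normalization and epithelial scaling, 1 was added to the FPKM before scaling rather than after it.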

Additional observations from a re-analysis of the deposited data

How the results depend on the processing

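The table holds no read counts, so what depth limits was not worked out for single values, 3 goats per stage were sampled, and several directions between LL and the other stages depend on scaling. Rows without a tied neighbour could not be checked. Scaling to epithelial markers shifted the median of all genes by -0.30 in DP versus LL, -0.20 in LG versus LL and 0.08 in LG versus DP. Of the values of the 8 genes under the alternatives, 426 kept direction and side of the threshold and 9 changed sign. A further 7 kept direction but lost the call, and 8 kept direction and gained it. For the other genes named these numbers were 1062, 14, 31 and 30, respectively. Some alternatives (filter, replicate block and variance model) leave the fold change itself as it is and can only move the call. The number of values kept is therefore no measure of how robust they are. Each value was counted once, so some that changed sign also lost a call, such as SLC2A1 and GALM in DP versus LL without scaling. SLC2A1 in LG versus LL with the values its neighbour implies changed sign and gained one. The cause of these changes was not tested.

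All genes called numbered 3321 (2029 higher, 1292 lower) in DP versus LL, 2544 (1572, 972) in LG versus LL and 1948 (937, 1011) in LG versus DP. Without scaling they were 8348 (7979, 369), 7043 (6698, 345) and 2292 (715, 1577), with epithelial scaling 3020 (692, 2328), 2537 (553, 1984) and 2220 (1174, 1046), and with adjusted p alone 8359, 7383 and 5112. A pseudocount of 0.1 gave 3912 in LG versus LL. Of the 8 genes, 3 were called without scaling in DP versus LL, and 4 in LG versus LL both without scaling and with adjusted p alone. Of the other pathway genes, 36 and 27 were called without scaling in DP and LG versus LL, where 21 and 13 were called with it, and adjusted p alone gave 32 in LG versus LL and 30 in LG versus DP.

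Without scaling, log2 fold changes in DP versus LL turned to 0.11 for SLC2A1, 0.89 for PGM1, 0.14 for GALM, 0.79 for GBE1, 0.056 for SLC35B1, 0.79 for HIF1A and 0.90 for TXNIP. In LG versus LL they turned to 0.55 for B4GALT1, 0.69 for UGP2, 0.63 for SLC35A2, 0.79 for SLC2A4, 0.49 for SLC2A8, 0.30 for SLC35B1 and 0.17 for TXNIP, and in LG versus DP to -0.16 for SLC35D2. Quantile normalization turned TXNIP in DP versus LL to 0.55 and HK2 in LG versus LL to -0.061, and epithelial scaling turned HK2 to -0.26 and PGM2L1 to -0.25 there. In both alternatives 1 was added before scaling. The part of this order in the values of HK2 and PGM2L1, which are at low levels, was not tested. SLC35D2 in LG versus DP was -0.11 without DP replicate 1 and -0.23 without LG replicate 2, and ranged from -0.23 to 0.17 over single libraries left out. With the row that neighbours SLC2A1, SLC2A1 was -1.73 in LG versus LL and -0.55 in LG versus DP. A pseudocount of 1 turned the log2 ratio of HK2 to HK1 to -0.32 in DP versus LL and -0.33 in LG versus LL and moved that of UGP2 to PGM1 in LG versus LL to -2.59. Without DP replicate 3, HK2 to HK1 in LG versus DP turned to 0.11, and it ranged from -0.79 to 0.11 over single libraries left out.

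Different goats were sampled at each stage, so the replicate numbers do not pair goats. Correlations between deviations of libraries with the same number were -0.1056 to 0.2009. They were not set against those of libraries with different numbers, so a batch shared by number was not tested. With the replicate number as a block, 3340, 2564 and 1986 genes were called, and 6, 2 and 6 of the 8 genes.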
